A study of Homo sapiens with 24 samples.

Results

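The zinc finger genes of chromosome 19 were defined as the protein-coding genes on that chromosome whose symbol is ZNF followed by a digit, and 249 of 20163 protein-coding genes met the definition. CDK9 inhibition (CDK9i) was followed by increased chromatin accessibility at up to 79 of their promoters. These 79 were counted in VAL at 8 h (31.7%, beside 25.1% of all protein-coding genes and 53.9% of the other genes of chromosome 19). In OCI-LY3 at 8 h, 71 were increased (28.5%, beside 9.30% and 28.1%). Decreased accessibility was called at none, beside at most 3.38% of all genes in any comparison. At 8 h, 40 members were increased in both lines, which is 50.6% of the VAL and 56.3% of the OCI-LY3 members. The same shares were 29.9% and 80.5% over all genes, and 49.8% and 95.4% for the other genes of chromosome 19. The set was selected on the same lists: chromosome 19 had stood out because 97.2 to 99.6% of its called regions were increased, so the predominance of increases is given as a description only.

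VAL and OCI-LY3 are human diffuse large B-cell lymphoma (DLBCL) cell lines, and both received AZD4573, a selective CDK9 inhibitor, at 30 nM for 0, 3 or 8 h. Accessibility was measured by ATAC-seq, in which a transposase cuts and tags DNA that is not packed away. Each line and time had 4 libraries, of which 2 were standard libraries from 50000 cells and 2 were Fast-ATAC libraries from 5000 cells by the labels (the protocol text gives 50000 for Fast-ATAC), and 3 h and 8 h were each compared with the 0 h libraries of the same line by the labels, while the lists name the control DMSO. The 8 lists held the coordinates of increased or decreased regions and no value per library, so neither depth, fold change nor the spread between libraries was known for any promoter. In such bulk lists, a promoter open in more cells and a promoter opened further in each cell cannot be told apart, and the line identities could not be checked against lineage markers.

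Most proteins of this family pair an array of C2H2 zinc fingers, which read DNA sequence, with a KRAB domain that recruits the corepressor TRIM28 and, through it, SETDB1 and heterochromatin protein. Many bind and silence transposable elements. The genes arose by repeated local duplication and therefore sit in long clusters along chromosome 19, where the gene bodies often carry H3K9me3 while the promoters stay open.

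The sequence just upstream of the start site differed between clusters. The 250 bases upstream of the canonical transcription start site (TSS) are shown for 5 members with different calls, chosen after the calls were known and free of annotated exons. All are on GRCh37, printed 5′ to 3′ along transcription, and capitals mark CCAAT (or ATTGG on the other strand) and the ETS letters CCGGAAGT (or ACTTCCGG). ZNF44 was increased in all 4 comparisons and lies on the minus strand (chr19:12405699-12405948). ZNF554 was increased in VAL only (plus strand, chr19:2819616-2819865). ZNF66 was increased in OCI-LY3 only and comes from the CpG-poorest cluster (plus strand, chr19:20958860-20959109). ZNF776 was increased in OCI-LY3 only and carries an ETS match (plus strand, chr19:58257933-58258182). ZNF607 was in no list (minus strand, chr19:38210663-38210912).
ZNF44: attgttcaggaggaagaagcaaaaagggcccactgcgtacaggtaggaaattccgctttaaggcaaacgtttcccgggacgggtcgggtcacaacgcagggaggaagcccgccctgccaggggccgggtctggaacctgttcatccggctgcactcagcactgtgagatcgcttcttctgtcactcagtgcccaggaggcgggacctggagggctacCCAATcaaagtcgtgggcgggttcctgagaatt
ZNF554: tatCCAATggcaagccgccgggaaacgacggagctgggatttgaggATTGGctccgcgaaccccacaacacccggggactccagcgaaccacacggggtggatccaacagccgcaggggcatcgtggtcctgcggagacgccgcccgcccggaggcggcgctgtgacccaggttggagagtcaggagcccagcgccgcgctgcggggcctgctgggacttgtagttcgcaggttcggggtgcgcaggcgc
ZNF66: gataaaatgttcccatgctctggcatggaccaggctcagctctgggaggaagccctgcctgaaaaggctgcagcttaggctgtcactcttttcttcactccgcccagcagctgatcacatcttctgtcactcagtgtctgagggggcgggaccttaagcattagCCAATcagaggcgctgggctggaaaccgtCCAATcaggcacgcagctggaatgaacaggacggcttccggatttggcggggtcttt
ZNF776: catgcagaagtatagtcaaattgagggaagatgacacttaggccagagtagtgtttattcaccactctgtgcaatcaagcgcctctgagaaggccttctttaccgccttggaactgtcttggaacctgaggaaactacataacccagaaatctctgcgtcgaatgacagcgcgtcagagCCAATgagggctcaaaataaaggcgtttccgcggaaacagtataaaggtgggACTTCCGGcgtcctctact
ZNF607: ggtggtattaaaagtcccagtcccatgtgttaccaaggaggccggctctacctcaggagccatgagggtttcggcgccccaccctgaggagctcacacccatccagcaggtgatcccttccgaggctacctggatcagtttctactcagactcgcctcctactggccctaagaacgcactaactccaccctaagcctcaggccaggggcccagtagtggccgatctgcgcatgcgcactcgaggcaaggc
The ZNF554 window held 26 CpG sites at 68.8% GC, whereas the ZNF66 window held 8 at 56.0%. The windows of ZNF44, ZNF776 and ZNF607 held 14, 11 and 10 CpG sites.

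A promoter was counted as increased when an increased region lay within 1 kb of a TSS of the gene. In VAL, 34 of the 249 members (13.7%) met this at 3 h, beside 10.3% of all protein-coding genes. At 8 h the count in VAL was 79 (31.7%), beside 25.1% of all genes. In OCI-LY3, 51 members (20.5%) were increased at 3 h and 71 (28.5%) at 8 h, beside 5.92% and 9.30% of all genes. The members' shares were closer to the genome-wide ones in VAL than in OCI-LY3. Without the 26 members from ZNF653 to ZNF791, a cluster left out because it had the most calls, the VAL shares were 10.3% and 24.7% of 223 members and the OCI-LY3 shares 17.0% and 24.7%. Both times of a line share their 0 h libraries, so the 3 h and 8 h values stand side by side and are not independent.

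The rest of chromosome 19 gave another picture. Among its 1231 other protein-coding genes, 28.3% were increased at 3 h and 53.9% at 8 h in VAL, and 12.4% and 28.1% in OCI-LY3. The shares of the zinc finger genes lay below these in VAL at both times and above in OCI-LY3 at 3 h, and the OCI-LY3 shares at 8 h were 28.5% and 28.1%. Of the 266 ZNF genes on other chromosomes, 14.3% and 27.8% were increased in VAL and 10.5% and 10.9% in OCI-LY3. Their shares were close to those of the chromosome 19 members in VAL and lower in OCI-LY3. The closeness in VAL leans on chromosome 16, which holds 30 of the 266. It had 18 of their 38 increased genes at 3 h and 23 of the 74 at 8 h. These are shares of the authors' calls with no test of their difference, and how far the excess of increases over the whole chromosome accounts for the members' counts was not tested.

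**Figure D1:**
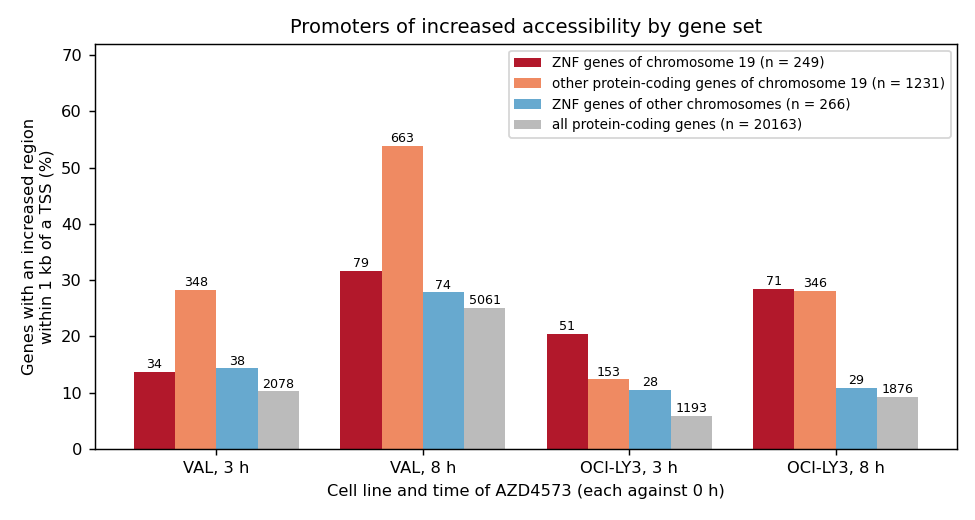
Share of genes (%) with an increased region within 1 kb of a TSS, for 4 gene sets in each line and time of AZD4573; numbers above the bars are counts of genes. In VAL the bar of the chromosome 19 ZNF genes (13.7% and 31.7%) lies below that of the other chromosome 19 genes (28.3% and 53.9%), and in OCI-LY3 at 3 h it lies above (20.5% against 12.4%).

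No member had a decreased region within 1 kb of a TSS in any of the 4 comparisons. Among all genes the shares with one were 0.322% and 3.38% in VAL and 0.694% and 1.28% in OCI-LY3 (3 h first). Other genes of chromosome 19 had few as well, with 1 of 1231 at each time in VAL and 2 and 4 in OCI-LY3. The scarcity of decreases was part of what drew attention to this chromosome and supports nothing further. Absence from a list does not show that a promoter kept its accessibility.

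The increased regions sat on the start sites. Coverage was not counted for other genes, so it cannot be called particular to the members. All 33 and 77 member regions in VAL and all 48 and 69 in OCI-LY3 (3 and 8 h) covered a TSS of a member, and 32, 76, 47 and 67 of them covered the canonical one. The distance limit was immaterial, because no member had its nearest increased region between 1000 and 2000 bp from a TSS. Just inside the limit every member lay at 0 bp, and the nearest outside were ZNF541 (4312 bp, both VAL times), ZNF681 (3750 bp, OCI-LY3 at 3 h) and ZNF772 (2587 bp, OCI-LY3 at 8 h). In VAL at 8 h, 77.2% of the 79 increased members were covered 500 bp upstream of the canonical TSS and 89.9% were covered 500 bp downstream, against 11.4% and 6.33% at 1000 bp on either side.

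**Figure D2:**
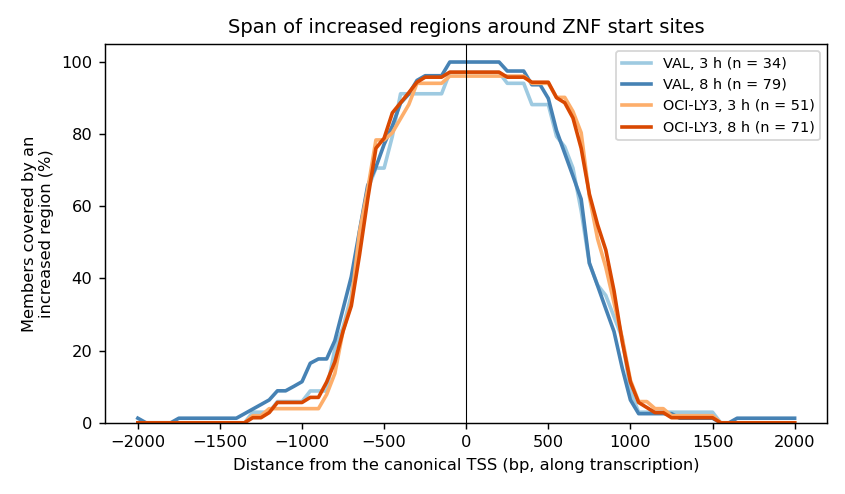
Share of members with an increased promoter (%) that an increased region covers, by distance from the canonical TSS in bp along transcription, with 1 line for each cell line and time. Coverage is 96.1 to 100% at the TSS and falls to between 3.92% and 11.8% at 1000 bp on either side in all 4 comparisons. Other gene sets were not profiled.

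Region widths are those of the authors' merged peaks and not the extent of an accessibility change. The members' increased promoter regions were narrower and less GC-rich than those elsewhere on the chromosome. Their median width was 1398 bp in VAL at both times and 1478 and 1499 bp in OCI-LY3, against 1550.5 to 1608 bp for the other genes of chromosome 19. Their median GC content ran from 56.9 to 58.9%, against 61.4 to 63.6%. The widest was at ZNF576 (2479 bp, chr19:44098994-44101472) and the narrowest at ZNF433 (858 bp, chr19:12146024-12146881), both in VAL at 8 h. A few regions served several genes: 1 to 4 per comparison touched a pair of members, and 6 to 15 also lay within 1 kb of the TSS of a gene outside the family.

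The calls were then counted by gene cluster, as a description. Joining neighbouring members no more than 250 kb apart gave 12 clusters of at least 5 members, which held 233 of the 249 and are named here by their first and last member. Beside each cluster count stand the shares of all protein-coding genes, 10.3% and 25.1% in VAL and 5.92% and 9.30% in OCI-LY3 (3 h first). The cluster with the most calls was ZNF653 to ZNF791 (chr19:11594242-12750912, 26 members). It had 11 increased promoters at 3 h and 24 (92.3%) at 8 h in VAL, and 13 and 16 (61.5%) in OCI-LY3. Among the 13 other genes in its span, 5 and 10 were increased in VAL and 5 and 6 in OCI-LY3. Nearby, ZNF317 to ZNF846 (chr19:9251073-9903856, 12 members) had 6 and 10 in VAL and 4 and 5 in OCI-LY3.

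Other clusters of the short arm and the region next to the centromere differed sharply. All 5 members of ZNF554 to ZNF77 (chr19:2819866-2944969) were increased in VAL at 8 h and 3 of them at 3 h, with 0 in OCI-LY3 at either time. ZNF737 to ZNF254 (chr19:20718631-24312770) had 29 members and 0 increased promoters in VAL at both times, beside 10.3% and 25.1% of all genes. In OCI-LY3 it had 6 (20.7%) at 3 h, above the 5.92% of all genes, and 2 (6.90%) at 8 h, below the 9.30%. ZNF101 to ZNF486 (chr19:19779605-20311297, 8 members), just beside it, had 1 at each time in VAL and 4 at each time in OCI-LY3.

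On the long arm, 3 clusters had no more than 2 increased promoters in any comparison. Their shares in OCI-LY3 ran from 0 to 4.35%, beside 5.92% and 9.30% of all genes, a gap of 1 or 2 genes in clusters of this size. In VAL their shares were 0 at 3 h and ran from 0 to 11.1% at 8 h, beside 10.3% and 25.1% of all genes. ZNF565 to ZNF573 (chr19:36673178-38307940, 26 members) had 0 increased promoters in VAL and 1 at each time in OCI-LY3. ZNF575 to ZNF180 (chr19:44029649-45004576, 23 members) had 0 and 2 in VAL and 1 and 1 in OCI-LY3. The 14 other genes in its span had 0 and 6 in VAL and 0 in OCI-LY3. ZNF787 to ZNF835 (chr19:56598732-57183151, 9 members) had 1 call in all, at 8 h in VAL. By contrast, all 5 members of ZNF302 to ZNF792 (chr19:35168544-35455133) and all 7 of ZNF628 to ZNF581 (chr19:55987984-56156989) were increased in VAL at 8 h. The 8 h counts for OCI-LY3 were 1 and 3. The last contrast depends on the gap: joined at up to 500 kb, ZNF628 to ZNF581 and ZNF787 to ZNF835 form 1 cluster with 8 of 16 members increased in VAL at 8 h.

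The 2 largest clusters had more calls in OCI-LY3. ZNF175 to ZNF331 (chr19:52074536-54083523, 40 members) had 5 and 8 increased promoters in VAL and 11 and 18 (45.0%) in OCI-LY3. None of the 14 other genes within it was increased in any comparison. ZNF264 to ZNF446 (chr19:57702868-58992597, 43 members), at the end of the long arm, had 0 and 5 (11.6%) in VAL and 8 and 14 (32.6%) in OCI-LY3. There the 23 other genes had 0 and 2 in VAL and 2 and 7 in OCI-LY3. Whether these members had accessible promoters before treatment cannot be read from lists that hold only called regions.

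**Figure D3:**
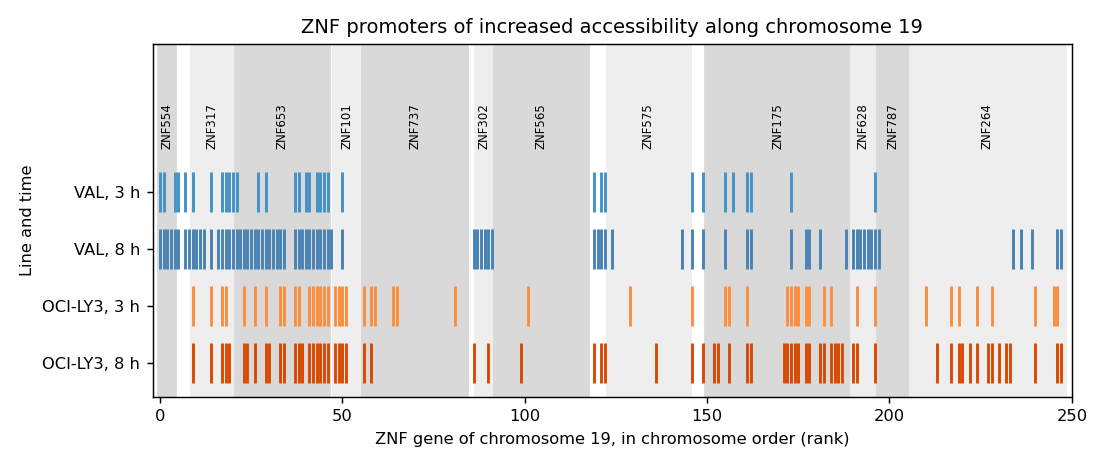
Each vertical mark is a ZNF gene of chromosome 19 with an increased region within 1 kb of a TSS; genes stand in chromosome order by rank, rows are the 4 comparisons, and shaded bands are the clusters of at least 5 members, labelled by their first member. Marks are dense in the ZNF653 band in all rows, absent from the ZNF737 and ZNF565 bands in the VAL rows, and sparse in the ZNF575 band.

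**Figure D4:**
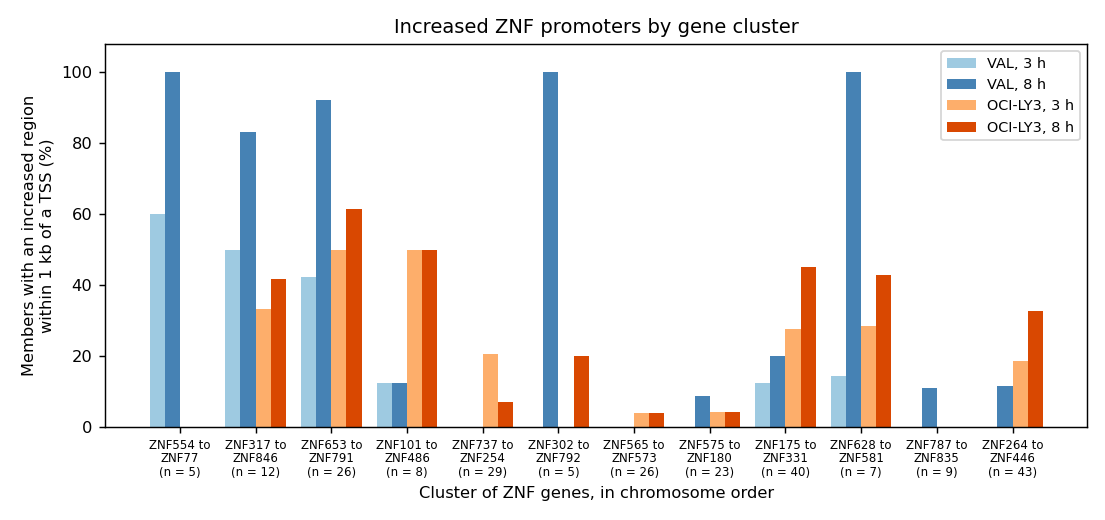
Share of members (%) with an increased promoter in each of the 12 clusters, in chromosome order, with 1 bar for each line and time and the number of members under each cluster. In VAL at 8 h the share ran from 0 to 100%, whereas in OCI-LY3 at 8 h the highest share was 61.5%.

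Between the lines, 41 members (16.5%) were increased in both at some time, 39 (15.7%) in VAL only, 39 (15.7%) in OCI-LY3 only and 130 (52.2%) in no promoter list. Over all protein-coding genes the shares were 8.29%, 17.2%, 2.47% and 72.1%. Where a member was called in both lines at the same time, the lists shared at least 1 region with identical coordinates, except for ZNF28 at 3 h. The authors merged peaks across samples before calling, so identical coordinates follow from that step and do not measure agreement between lines. At 3 h, 18 members were increased in both lines, which is 52.9% of the VAL and 35.3% of the OCI-LY3 members. At 8 h the shared members numbered 40, as given above. For the other genes of chromosome 19 the shared part was 33.3% of the VAL and 75.8% of the OCI-LY3 genes at 3 h, and 49.8% and 95.4% at 8 h. Over all genes it was 32.5% and 56.7% at 3 h. Over both times, 39 of the 80 members increased in OCI-LY3 (48.8%) were in neither VAL list, against 18 of 355 other chromosome 19 genes (5.07%), 16 of 42 ZNF genes on other chromosomes (38.1%) and 499 of 2171 among all genes. These shares carry no test, since the lists hold no value per library.

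The 17 members increased in all 4 comparisons were ZNF317, ZNF266, ZNF121, ZNF561, ZNF700, ZNF136, ZNF44, ZNF799, ZNF709, ZNF564, ZNF490, ZNF791, ZNF506, ZNF296, ZNF766, ZNF28 and ZNF581. They make up 6.83% of the members, beside 2.84% of all protein-coding genes and 8.94% of the other chromosome 19 genes. Of the 17, 8 belong to the ZNF653 to ZNF791 cluster and 4 to ZNF317 to ZNF846. At 15 of the 17 the same region of the merged peak set was called in each list. ZNF28 was increased at its canonical start in VAL at both times (chr19:53323931-53325385) and at a farther upstream start in OCI-LY3 at 3 h (chr19:53360126-53361676), with both called in OCI-LY3 at 8 h. ZNF581 shared a region in all lists and had a further one in VAL at 8 h. At ZNF44, whose upstream sequence is shown above, it spanned chr19:12404682-12406391 (1710 bp, 60.6% GC). At ZNF700 it spanned chr19:12034607-12036644 (2038 bp, 57.3% GC) and also lay within 1 kb of the TSS of a gene outside the family. At ZNF121 it spanned chr19:9694302-9695730 (1429 bp, 52.9% GC). ZNF296, a factor known from stem cells and heterochromatin, stood alone outside the clusters. ZNF490 and ZNF791 start close together on opposite strands.

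The 39 members increased in OCI-LY3 only came from 6 clusters, 14 of them from ZNF264 to ZNF446, 12 from ZNF175 to ZNF331, 6 from ZNF737 to ZNF254 and 3 from ZNF101 to ZNF486. In chromosome order the first 10 were ZNF101, ZNF14, ZNF253, ZNF737, ZNF66, ZNF85, ZNF738, ZNF493, ZNF675 and ZNF567. The region at ZNF66 spanned chr19:20958547-20959912 (1366 bp) at both times. The region at ZNF776 spanned chr19:58257719-58259026 (1308 bp, 53.2% GC) and was called at 8 h. By time, 16 of the 39 were increased at both times, 15 at 8 h alone and 8 at 3 h alone. The 39 in VAL only were split differently, with 29 at 8 h alone, 9 at both times and ZNF432 at 3 h alone.

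Members with a known role were also read as a list of 16, kept whatever their calls but written with earlier results of these data known. Decreased promoters numbered 0, beside at most 3.38% of all genes, and 7 were increased in at least 1 comparison, beside 119 of the 249 members (47.8%) and 27.9% of all genes. ZNF473, which takes part in histone pre-mRNA processing, was increased in VAL at both times and in OCI-LY3 at 8 h (chr19:50528107-50529467, 1361 bp). ZNF274, which brings SETDB1 to the 3′ ends of zinc finger genes, was increased in VAL at 8 h alone (chr19:58693469-58695362). ZNF653, a corepressor of steroidogenic factor, was increased in VAL at both times, and ZNF558, a repressor of SPATA18, in VAL at 8 h. ZNF587 and ZNF417, a pair that silences endogenous retroviruses of the HERV-K group, were both increased in OCI-LY3 at 8 h alone (chr19:58360664-58362104 and chr19:58427173-58428692). ZNF675, an inhibitor of TRAF6 signalling, was increased in OCI-LY3 at 3 h alone (chr19:23869008-23870577). The other 9 were in no promoter list, among them ZNF91 and ZNF93, which silence SVA and LINE-1 elements, the BRCA1 partner ZNF350 and the imprinted ZNF331.

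Regions that overlapped the gene body were counted separately. Increased regions overlapped 38 members (15.3%) at 3 h and 84 (33.7%) at 8 h in VAL, beside 14.2% and 32.9% of all genes. In OCI-LY3 they overlapped 54 (21.7%) and 80 (32.1%), beside 8.69% and 15.9%. Most were the promoter regions again: once regions within 1 kb of the member's own TSS were left out, 6 (2.41%) and 14 (5.62%) members remained in VAL and 5 (2.01%) and 13 (5.22%) in OCI-LY3. Under the same exclusion 5.63% and 15.5% of all genes remained in VAL, and 3.26% and 8.14% in OCI-LY3.

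Among these distal regions, a few recurred. An intronic region shared by ZNF490 and ZNF791 (chr19:12723851-12725552, 1702 bp) was increased in all 4 comparisons, as was a region that touches an exon of ZNF682 (chr19:20107953-20109383, 1431 bp), 40931 bp downstream of its canonical TSS. A region in the body of ZNF580 (chr19:56145863-56146974) was also increased in all 4, but it lies within 1 kb of a TSS of ZNF581. The last exon of the canonical transcript, where the zinc fingers are usually encoded, was overlapped at ZNF772 only, in OCI-LY3 at 8 h (chr19:57985108-57986285). Those regions were chosen after their values were seen.

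Decreased gene-body regions were found at 2 members, both in VAL at 8 h. At ZNF91 the region lay in an intron (chr19:23561737-23562883, 1147 bp) 15390 bp downstream of the canonical TSS. At ZNF730 it was also intronic and spanned 412 bp (chr19:23273658-23274069). Neither gene had a promoter call in any list, and both belong to the ZNF737 to ZNF254 cluster. The other 3 comparisons had 0. Among all genes, decreased regions overlapped 3.97% and 12.5% of gene bodies in VAL and 4.36% and 7.04% in OCI-LY3.

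The upstream sequence was then compared between members as a description. Over the 249 windows the median GC content was 59.2% with a median of 15 CpG sites, against 63.6% and 17 for the other chromosome 19 genes and 63.2% and 18 for all genes. Letters were searched on both strands in windows of the same length. CCAAT was present in 50.6% of member windows, 36.1% of the other chromosome 19 genes and 34.2% of all genes. The ETS letters CCGGAAGT were present in 12.9%, 5.36% and 5.05%. GGGCGG, the core of the Sp1 motif, was present in 64.7%, 63.9% and 58.6%. The YY1 letters AAGATGGCG were found in 2.81%, 0.975% and 0.724%, the CRE letters TGACGTCA in 2.81%, 3.09% and 2.40%, and the NRF1 letters GCATGCGC in 4.02%, 5.04% and 3.81%. None of these strings contains another, and a match is not evidence of binding.

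The letters were also counted by cluster and by call. CCAAT was present in 88.5% of the ZNF653 to ZNF791 windows, most of which were increased in VAL at 8 h, and in 96.6% of the ZNF737 to ZNF254 windows, none of which was. These clusters had medians of 12 and 8 CpG sites. The ETS letters were frequent in ZNF264 to ZNF446 (44.2%) and ZNF575 to ZNF180 (30.4%) and were not found in 7 of the 12 clusters, among them ZNF317 to ZNF846, ZNF653 to ZNF791, ZNF101 to ZNF486 and ZNF737 to ZNF254. By call, CCAAT was present in 68.3% of members increased in both lines, 41.0% of those in VAL only, 56.4% of those in OCI-LY3 only and 46.2% of those in no list. The ETS letters were present in 4.88%, 7.69%, 23.1% and 13.8%, and GGGCGG in 80.5%, 84.6%, 48.7% and 58.5%. Median GC was 61.2%, 62.0%, 56.4% and 57.6%. Cluster membership and call cannot be told apart in these shares.

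**Figure D5:**
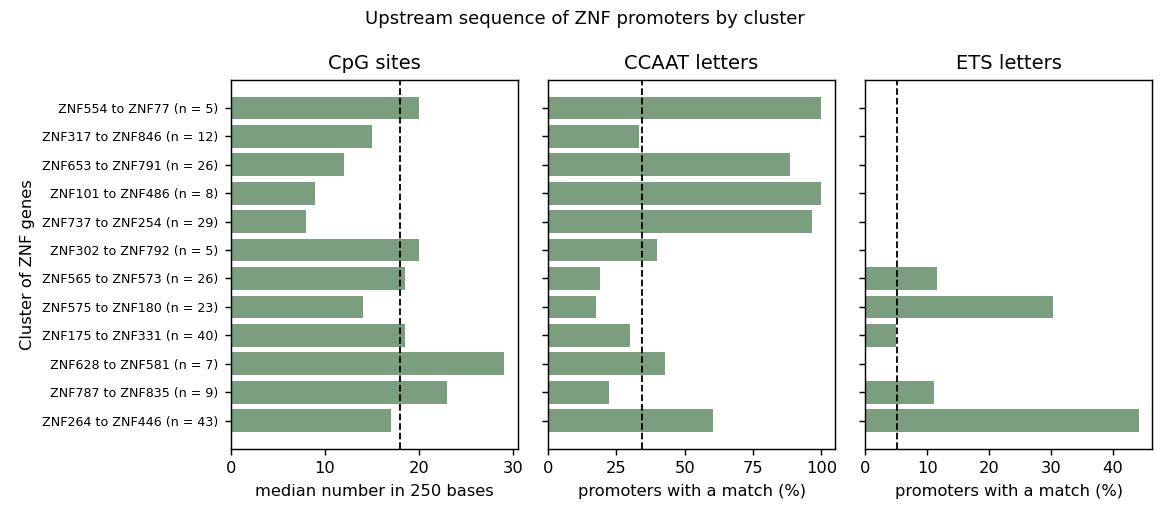
For each of the 12 clusters, the median number of CpG sites and the share of windows (%) with CCAAT or the ETS letters in the 250 bases upstream of the canonical TSS; dashed lines mark the value over all protein-coding genes (18 sites, 34.2% and 5.05%). ETS matches reach 44.2% in ZNF264 to ZNF446, and CCAAT reaches 100% in ZNF554 to ZNF77 and ZNF101 to ZNF486.

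Among windows at different places, leaving out pairs that overlap on the genome, ZNF28 and ZNF468 alone shared at least 50% of their 36-base words with another member window, 53.5% each. The authors had removed reads that did not align uniquely, which can lower the signal at such copies.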

How the data were processed

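ATAC-seq libraries (24) were made from VAL and OCI-LY3 cells at 0, 3 and 8 h of AZD4573. Reads were mapped by the authors with bowtie2 (build hg19), and duplicate, non-unique and mitochondrial reads were dropped. Per-sample MACS2 peaks (q 0.05) were merged, reads were counted with bedtools, and the authors used DESeq2 to compare each time with 0 h. Calls needed an absolute fold change above 1.5 and an adjusted p below 0.01 by the methods text, or at most 0.05 by the figure legend. Whether the library protocol entered the model is not given in the sources used here. The deposited lists hold the chromosome, start and end of each called region in bp and no count, score or p-value, so depth and precision per library are unknown.

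Starts were converted to 1-based coordinates. Genes and TSS (transcripts tagged basic) came from GENCODE v44 lifted to GRCh37, and sequence from GRCh37. A promoter region lay within 1 kb of a TSS, and a gene-body region overlapped the gene by at least 1 bp. Analyses used Python 3.11.15, numpy 2.4.6 and Biopython 1.88, and scripts were tested on simulated data. No significance test was made, because calls are pooled over libraries. The members, gene lists and alternatives were chosen with earlier results of these data known, and the cluster gap of 250 kb, the letters searched and the printed windows after the calls were seen.

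Named genes were the members increased in all 4 comparisons, those with any decreased promoter or gene-body region, the first 10 in chromosome order increased in OCI-LY3 only, fixed lists of 16 members with known roles and 13 corepressors, the widest and narrowest promoter regions, and the members next to the distance limit. Others are named as examples after their values were seen.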

Additional observations from a re-analysis of the deposited data

How the results depend on the processing

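Of 120 alternative values over 16 counts, 50 were 0 beside a reported 0, where a ratio has no meaning, and 62 of the other 70 lay within 1.5 times the value reported. The alternatives covered distances of 500 and 2000 bp, region midpoints, all or canonical transcripts, a wider family of 264 gene names, regions counted once, members that share a region with a non-member left out, and, chosen after seeing the data, leaving out 3 readthrough genes or the ZNF653 to ZNF791 cluster. A count within this limit still bears on the comparison with all genes: without the ZNF653 to ZNF791 cluster, picked as the one with most calls, the VAL shares were 10.3% and 24.7%, beside 10.3% and 25.1% of all genes. The 8 that moved were gene-body counts of increased regions. Without regions at the own TSS the 3 h and 8 h counts fell to 6 and 14 for VAL and to 5 and 13 for OCI-LY3, and without regions at any protein-coding TSS to 4 and 10, and 3 and 8. Cluster gaps of 100 and 500 kb, also chosen after seeing the data, leave the member counts as they are but redraw clusters: at 500 kb ZNF628 to ZNF835 is 1 cluster of 16, and at 100 kb ZNF302 to ZNF792 splits into groups of 3 and 2.

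No paired analysis was possible because per-library values are absent from the lists. For the same reason a stricter threshold and leaving out a library were not run, counts at an unadjusted p are not known, and the library protocols cannot be compared. Depth sets which promoters are callable, and it is unknown here.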

Other observations

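The corepressors that KRAB zinc finger proteins work through were read as a fixed list of 13, also written with earlier results known. Promoters increased in VAL were TRIM28, CBX5 and MORC2 at 3 h, and these with SETDB1, CBX1 and HDAC1 at 8 h. In OCI-LY3 they were TRIM28 at 3 h, and TRIM28 and TASOR at 8 h. That is 23.1% and 46.2% of the list in VAL and 7.69% and 15.4% in OCI-LY3, beside 10.3%, 25.1%, 5.92% and 9.30% of all genes. TRIM28, the scaffold that binds the KRAB domain, was increased in all 4 comparisons, as were 8.94% of the chromosome 19 genes outside the ZNF family, among which it counts. Decreased promoters numbered 0 of 13, beside at most 3.38% of all genes in any comparison, so that count is uninformative.

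ZNF genes on other chromosomes are given beside the other protein-coding genes of the same chromosome, for chromosomes with at least 17 ZNF genes. On chromosome 16, 18 of 30 ZNF genes (60.0%) were increased at the promoter in VAL at 3 h and 23 (76.7%) at 8 h, against 25.8% and 49.1% of the other genes. In OCI-LY3 the ZNF counts there were 7 (23.3%) and 11 (36.7%), against 10.2% and 20.9%. On chromosome 7, 3 of 35 (8.57%) were increased in each comparison, against 6.90% and 15.9% of the other genes in VAL and 7.35% and 8.57% in OCI-LY3. On chromosome 10 the count was 0 of 17 throughout, against 2.07% and 12.7% in VAL and 3.72% and 4.41% in OCI-LY3. On chromosome 8 (18 ZNF genes) the ZNF shares were 22.2% and 38.9% in VAL and 22.2% and 16.7% in OCI-LY3. The other genes there had 4.78% and 11.6%, and 4.20% and 4.49%. On chromosome 1 (22 ZNF genes) the ZNF shares were 4.55% and 27.3%, and 13.6% and 4.55%, against 7.10% and 26.2%, and 5.07% and 8.31%. On chromosome 3 (19 ZNF genes) the ZNF shares were 0 and 5.26%, and 0 and 10.5%, against 4.79% and 15.3%, and 5.08% and 6.30%. These shares carry no test.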
